A study of Mus musculus with 71 samples.

Results

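The 39 protein-coding Hox genes of the mouse, Hoxa, Hoxb, Hoxc and Hoxd followed by a number from 1 to 13, were followed through 65 bulk RNA-seq libraries of the intestine. They were taken by symbol, without antisense or opposite-strand genes, from the 24475 rows that the tissue, epithelial and lymphocyte tables share, and all 39 were present in each table. On GRCm38 they lie in 4 clusters: 11 HoxA genes on chromosome 6 (52155367 to 52260880), 10 HoxB genes on chromosome 11 (96194316 to 96368254), 9 HoxC genes on chromosome 15 (102921131 to 103036856) and 9 HoxD genes on chromosome 2 (74668225 to 74765142). Levels are given as CPM (counts-per-million of a normalized library size), with SD over libraries. Genes are set against each other only per kilobase (kb) of exon. The spans of 6 pairs of members overlap (Hoxa3 with Hoxa4, Hoxa5 and Hoxa6, Hoxb3 with Hoxb4, Hoxd3 with Hoxd4, and Hoxd10 with Hoxd11), and reads there could be split between the partners, so the values of these 10 genes are less certain.

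All mice were C57BL/6 and either wild-type (WT) or Btnl2-KO (Btnl2-/-), a line in which a LacZ cassette inserted at the start codon disrupts Btnl2, a butyrophilin-like gene of intestinal epithelium, in every cell of the animal. Whole tissue, from mice labelled young without an age, came from WT colon (n = 6), Btnl2-KO colon (n = 7), WT small intestine (n = 7) and Btnl2-KO small intestine (n = 7). Intestinal epithelial cells (IECs) at 7 weeks came from the duodenum (3 WT, 2 Btnl2-KO), jejunum (3 and 3) and ileum (2 and 3). Sorted γδ intraepithelial lymphocytes (IELs), the T cells that live between epithelial cells, came at 10 weeks from the duodenum (4 WT, 3 Btnl2-KO), jejunum (4 and 4) and ileum (4 and 3), each library being a pool of 2 mice. Single cells of the same kind, labelled 8 to 10 weeks, made up 6 further libraries, 1 for each genotype and segment. The paper describes each as a pool of part of every sorted IEL sample, the rest of which went to bulk sequencing. By that account they are no independent check on the bulk IELs. Library totals ran from 13619309 to 21708721 counts in tissue, from 15397757 to 38258472 in IECs and from 13444958 to 30029485 in IELs.

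Hox genes encode homeodomain transcription factors that give cells their position along the body axis. Genes with the same number in different clusters are paralogues, descended from 1 ancestral gene. Within a cluster the order of the genes on the chromosome follows the order of their domains from head to tail, so that low numbers are anterior and high numbers posterior. Hox proteins bind DNA together with TALE cofactors such as Pbx and Meis proteins, Cdx proteins act upstream of posterior Hox genes, and Polycomb and Trithorax complexes hold the clusters silent or active after development. In the gut, Hox genes are known mainly from the mesenchyme, with the Hox13 genes marking the hindgut.

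Promoter windows of 250 bases before an annotated start (RefSeq, GRCm38.p6) were matched for 22 of the 39 members in 24 windows. Some of these windows lie inside the span of the gene. Among them is that of Hoxb8, a gene that spans 96279401 to 96285325. The windows of 4 members that differed between colon and small intestine are printed 5′ to 3′, the first pair higher and the second pair lower in colon, with capitals on matches to CATAAA (a Cdx-type element), TATAAA (the TATA box) and TGATNNAT (a Pbx-Hox type element), on either strand. They are Hoxa13 (chr6:52260881-52261130, minus strand), Hoxd13 (chr2:74667975-74668224, plus strand), Hoxb8 (chr11:96281655-96281904, plus strand) and Hoxd4 (chr2:74721728-74721977, plus strand).
Hoxa13: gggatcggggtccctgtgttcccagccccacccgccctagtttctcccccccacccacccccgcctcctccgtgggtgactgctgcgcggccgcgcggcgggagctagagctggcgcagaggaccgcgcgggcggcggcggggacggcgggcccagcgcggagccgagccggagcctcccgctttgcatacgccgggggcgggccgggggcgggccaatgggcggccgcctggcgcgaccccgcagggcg
Hoxd13: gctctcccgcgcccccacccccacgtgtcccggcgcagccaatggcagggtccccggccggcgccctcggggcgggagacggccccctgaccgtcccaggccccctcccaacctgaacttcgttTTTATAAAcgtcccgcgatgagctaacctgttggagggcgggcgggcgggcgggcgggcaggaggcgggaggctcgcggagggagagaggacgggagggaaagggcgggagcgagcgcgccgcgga
Hoxb8: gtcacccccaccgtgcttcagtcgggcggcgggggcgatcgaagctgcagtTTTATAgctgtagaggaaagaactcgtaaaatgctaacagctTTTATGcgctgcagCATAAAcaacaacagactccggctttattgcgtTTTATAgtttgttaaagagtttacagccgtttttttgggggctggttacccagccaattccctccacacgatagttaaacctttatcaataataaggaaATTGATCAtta
Hoxd4: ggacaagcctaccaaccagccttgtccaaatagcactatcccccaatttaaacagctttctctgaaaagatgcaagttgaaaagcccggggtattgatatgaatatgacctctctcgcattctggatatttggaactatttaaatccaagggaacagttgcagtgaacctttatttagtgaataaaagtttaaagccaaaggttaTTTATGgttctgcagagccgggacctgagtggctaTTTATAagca
The Hoxa13 window held none of the 3 motifs and was 80% G and C. In the Hoxd13 window (74.4% G and C), 2 overlapping TATAAA matches, 1 on each strand, formed the capitals. Hoxb8 (44.4% G and C) held 2 CATAAA, 2 TATAAA and 1 TGATNNAT match, and Hoxd4 (40.4% G and C) held 1 CATAAA and 1 TATAAA match. CATAAA was found in 20.8% of the 24 member windows and in 10.8% of all 32851 windows of this length, TATAAA in 16.7% and 12.4%, and TGATNNAT in 16.7% and 7.68%. A match describes the letters only.

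Several libraries stood apart before any Hox gene was considered. Of the 14 small intestine libraries, 5 had Gata4, a factor of the proximal small intestine, or Car1, an enzyme of the large intestine, above 10 CPM. Gata4 was at 95.6 CPM in Btnl2-KO library 964939, 82.7 in WT library 964950 and 15.1 in WT library 964952, and at most 2.304 in the others. Car1 was at 846 CPM in WT library 964947 and 1624 in WT library 964948, and at most 0.610 in the others. Among IECs, the libraries labelled Btnl2-KO duodenum 1003459 and Btnl2-KO jejunum 1003474 carried the ileal bile acid binding protein Fabp6 at 220 and 484 CPM, against 0.231 in the library labelled Btnl2-KO ileum 1003481, which had Gata4 at 153 CPM. These 3 libraries went against their segment labels, so the segments of the epithelium were compared in WT libraries. Btnl2 was at 23.9 to 103 CPM in WT and 0.675 to 2.44 CPM in Btnl2-KO small intestine. In IECs it was at 25.1 to 67.7 CPM in WT and 0.342 to 0.595 CPM in Btnl2-KO, except 5.45 and 19.5 CPM in the libraries labelled Btnl2-KO duodenum 1003459 and Btnl2-KO jejunum 1003474.

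Colon and small intestine tissue expressed different parts of the Hox clusters. In WT mice, 13 of the 32 members tested were higher in colon (12% of all genes tested were) and 14 were lower (15.6% of all genes), and 5 did not pass. Passing meant a false discovery rate (FDR) below 0.05 over all genes tested and a fold change above 1.5 in edgeR's quasi-likelihood test. In Btnl2-KO mice, which are other animals, 14 of 30 members were higher (14.4% of all genes) and 13 lower (15.7%). Of the members tested, 5 in WT and 9 in Btnl2-KO mice reached the minimum of 10 counts in a library only in colon, and 4 and 3 only in small intestine. In WT mice these were Hoxa11, Hoxa13, Hoxb13, Hoxd11 and Hoxd13, and Hoxc5, Hoxc6, Hoxc8 and Hoxc9. They could enter the test only by being high on 1 side, so their direction was set by the count minimum, and they add nothing to the counts of members. Of all genes tested, 14% had every WT colon library above every WT small intestine library and 10.8% had every one below (13.4% and 13.6% in Btnl2-KO mice). Fewer cells of a type and less RNA per cell cannot be told apart in whole tissue.

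**Figure D1:**
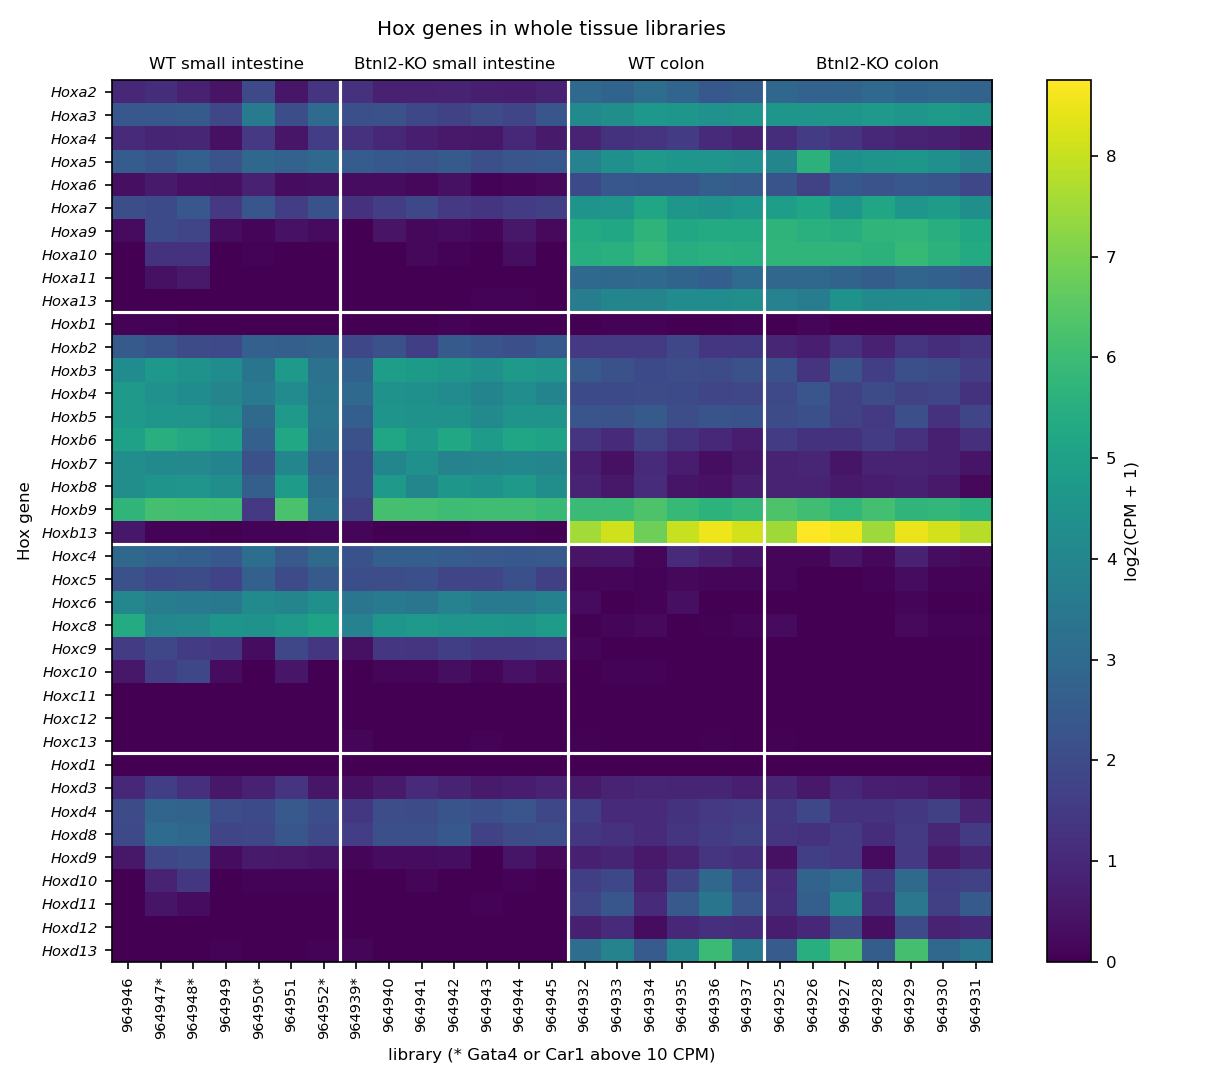
Level of 38 of the 39 Hox genes, as log2(CPM + 1) in colour, in the 27 tissue libraries, with genes in cluster order and white lines between clusters and groups. Most HoxA genes, Hoxb13 and Hoxd13 are brighter in colon, Hoxc4 to Hoxc9 and Hoxb2 to Hoxb8 in small intestine, and asterisks mark the 5 small intestine libraries with Gata4 or Car1 above 10 CPM.

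Among the posterior genes, of groups 9 to 13, Hoxa9, Hoxa10, Hoxa11, Hoxa13, Hoxb13, Hoxd10, Hoxd11 and Hoxd13 passed as higher in WT colon, Hoxc9 passed as lower, and Hoxb9 and Hoxd9 did not pass. Hoxb13, the last gene of the HoxB cluster, had the highest mean level of all members in tissue, both in CPM and per kb. In the 6 WT colon libraries it ran from 111 to 366 CPM (median 267) and in the 7 WT small intestine libraries from 0 to 0.474 CPM (median 0.0556), with a log2 fold change of 11.11 (SE 0.45, FDR = 1.79e-10). In Btnl2-KO mice the colon libraries lay between 177 and 430 CPM (median 283) and the small intestine libraries between 0 and 0.0761 CPM. Over the group, Btnl2-KO small intestine held 3 counts and Btnl2-KO colon 32322, a ratio of 10760 (3680 to 52164). The groups did not overlap in either genotype.

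Hoxa13, needed for hindgut and urogenital development, was at 11.6 to 19.2 CPM in WT colon (median 16.6) and had no count in any WT small intestine library. Against the floor of 3 counts over the group, this was at least 701-fold higher in colon. In Btnl2-KO colon it was at 12.01 to 20.9 CPM (median 16.6), and 2 of the 7 small intestine libraries held 1 count each, a ratio of 914 (95% counting interval 253 to 7557). Hoxd13 ran from 4.68 to 61.0 CPM in WT colon (median 12.9) and from 0 to 0.0546 CPM in WT small intestine, a ratio of 1374 on 2 counts (380 to 11349). Its Btnl2-KO colon libraries ran from 4.75 to 79.1 CPM (median 9.88). Hoxc13 stayed at or below 0.0761 CPM in all 27 libraries. Per kb, mean levels in WT colon were 112 CPM for Hoxb13, 7.69 for Hoxd13 and 6.53 for Hoxa13. In WT colon, Hoxa13 and Hoxd13 did not differ beyond their spread.

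Hoxa9, Hoxa10 and Hoxa11 share the HoxA cluster with Hoxa13. Hoxa9 was at 36.4 to 50.4 CPM in WT colon (median 39.7) and 0.109 to 2.92 CPM in WT small intestine (median 0.218), a log2 fold change of 5.41 (SE 0.55, FDR = 2.08e-06). For Hoxa10 the colon values were 42.3 to 55.7 CPM (median 45.7) and the small intestine values 0 to 1.46 CPM (median 0), a log2 fold change of 6.73 (SE 0.62, FDR = 7.08e-07). Hoxa11 was lower in level, at 5.08 to 7.40 CPM in WT colon (median 6.82) and 0 to 0.525 CPM in WT small intestine (median 0), with a log2 fold change of 5.69 (SE 0.57, FDR = 1.61e-06). No WT small intestine library reached the lowest colon library for any of these 3 genes. In Btnl2-KO mice the 3 genes were at 46.6 ± 5.85, 49.8 ± 5.07 and 5.80 ± 0.721 CPM in colon (SD, n = 7), and Hoxa11 had no count in small intestine, at least 222-fold lower than in colon.

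In the HoxD cluster, Hoxd10 was at 0.702 to 6.73 CPM in WT colon (median 2.58) and 0 to 1.69 CPM in WT small intestine (median 0.0543), and the groups overlapped although the gene passed the test (log2 fold change 2.92, SE 0.78, FDR = 0.00678). Hoxd11 was at 1.05 to 9.47 CPM in WT colon (median 4.03) and 0 to 0.402 CPM in WT small intestine (median 0; log2 fold change 5.40, SE 0.72, FDR = 2.79e-05). Hoxd12 was too low to be tested, at 0.234 to 1.26 CPM in WT colon and without a count in WT small intestine, at least 40-fold lower there. In Btnl2-KO mice Hoxd12 was at least 52.6-fold lower in small intestine.

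The anterior and middle HoxA genes were also higher in colon, by less. Hoxa6 was at 2.91 to 5.21 CPM in WT colon (median 4.12) and 0.222 to 0.761 CPM in WT small intestine (median 0.327), a log2 fold change of 3.35 (SE 0.25, FDR = 8.14e-08). Hoxa2, Hoxa3, Hoxa5 and Hoxa7 rose by 1.94 to 2.98 on the log2 scale, and for each of them every colon library lay above every small intestine library. Hoxa4 did not pass in WT (log2 fold change 0.23, FDR = 0.641) or Btnl2-KO mice (0.45, FDR = 0.252) in edgeR's test.

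Most of the members that were lower in colon belonged to HoxB and HoxC. Hoxb8 was at 5.33 to 27.7 CPM in WT small intestine (median 19.2) and 0.347 to 1.17 CPM in WT colon (median 0.573), a log2 fold change of -4.77 (SE 0.44, FDR = 7.17e-07). Its neighbour Hoxb7 was at 3.48 to 19.2 CPM (median 15.2) and 0.261 to 1.11 CPM (median 0.542), a log2 fold change of -4.53 (SE 0.45, FDR = 1.72e-06). Hoxb6 was at 5.38 to 45.0 CPM (median 31.8) and 0.602 to 2.34 CPM (median 1.24), a log2 fold change of -4.42 (SE 0.51, FDR = 7.23e-06). Toward the anterior end the differences were smaller, with log2 fold changes of -2.33 for Hoxb5, -2.58 for Hoxb4, -2.40 for Hoxb3 and -1.25 for Hoxb2. For all 7 genes every colon library was below every small intestine library, in WT and in Btnl2-KO mice.

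Hoxc8, a thoracic-level gene in the trunk, was at 15.5 to 40.8 CPM in WT small intestine (median 22.3) and 0 to 0.175 CPM in WT colon (median 0.0773), a log2 fold change of -8.17 (SE 0.39, FDR = 1.00e-09). Hoxc6 was at 10.6 to 19.9 CPM (median 14.8) and 0 to 0.268 CPM (median 0.0292), a log2 fold change of -7.37 (SE 0.43, FDR = 7.03e-09). Hoxc5 was at 2.40 to 5.43 CPM (median 3.002) and 0.0585 to 0.134 CPM (median 0.101), and Hoxc4 at 4.37 to 7.88 CPM (median 5.68) and 0.117 to 1.07 CPM (median 0.426). Hoxc9 was at 0.217 to 2.67 CPM in WT small intestine (median 1.93) against 2 counts in all of WT colon, a ratio of 97.3 (26.6 to 808), and had no count in Btnl2-KO colon. Hoxc11 and Hoxc12 had no count in any tissue library.

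Leaving out the 5 small intestine libraries that stood apart, a choice made after the data were seen, 29 members passed in each genotype (27.1% of all genes tested did in WT and 29.9% in Btnl2-KO mice). Hoxa9 then had a log2 fold change of 7.26 (SE 0.21) in WT mice and Hoxd10 one of 6.79 (SE 1.09). Hoxa10 and Hoxa11 had no count in the 3 WT small intestine libraries that were left. Hoxd9, which had not passed (FDR = 0.758), was then higher in WT colon (log2 fold change 1.24, SE 0.42, FDR = 0.0371). Hoxb8, Hoxc6 and Hoxc8 were little moved, at -5.08, -7.29 and -8.40 on the log2 scale.

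Hoxb9 stood between the 2 sides. It had the second highest mean level in tissue and ran from 49.9 to 77.6 CPM in WT colon (median 59.3) and from 1.74 to 73.7 CPM in WT small intestine (median 66.0), with a log2 fold change of 0.30 (SE 0.55, FDR = 0.682). In Btnl2-KO mice the colon libraries ran from 47.6 to 77.5 CPM (median 55.1) and the small intestine libraries from 2.13 to 70.8 CPM (median 65.8; log2 fold change 0.08, SE 0.41, FDR = 0.884). Hoxb8, its neighbour on 1 side, was lower in colon and Hoxb13, on the other side, was higher. Without the 5 libraries that stood apart its log2 fold change was -0.10 (SE 0.15) in WT and -0.13 (SE 0.11) in Btnl2-KO mice.

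By cluster, 9 of 11 HoxA genes tested in WT mice were higher in colon and none lower, 1 of 9 HoxB genes was higher and 7 lower, 5 of 5 HoxC genes were lower (none testable without small intestine), and 3 of 7 HoxD genes were higher and 2 lower. By paralogue group, 3 of 6 members tested in groups 9 and 10 were higher in colon and 1 lower, and 11 of 15 in groups 4 to 8 were lower and 3 higher. Hoxa9, Hoxa10 and Hoxd10, the 3 higher in groups 9 and 10, could not have been tested without colon. Nor could Hoxa6, Hoxb7, Hoxb8 and Hoxc4 in groups 4 to 8 without their higher side. The 5 tested in groups 11 to 13 were the ones that reached the count minimum only in colon, so that their shared direction was fixed by the filter, as it was for Hoxc9 in group 9 and Hoxc5, Hoxc6 and Hoxc8 in groups 4 to 8. The 3 exceptions in groups 4 to 8 were Hoxa5, Hoxa6 and Hoxa7. The median over all genes tested was -0.02. Genes within a cluster are neighbours and no independent replicates. Pearson's r of the log2 fold change with the paralogue number was 0.91 over 11 HoxA genes and 0.81 over 7 HoxD genes. It was -0.70 over 5 HoxC genes and 0.66 over 9 HoxB genes. Spearman's rank correlations, in the same order, were 0.87, 0.89, -0.70 and 0.12. The members whose direction was fixed by the filter are among these genes, so the correlations rest in part on the filter and only describe the values.

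**Figure D2:**
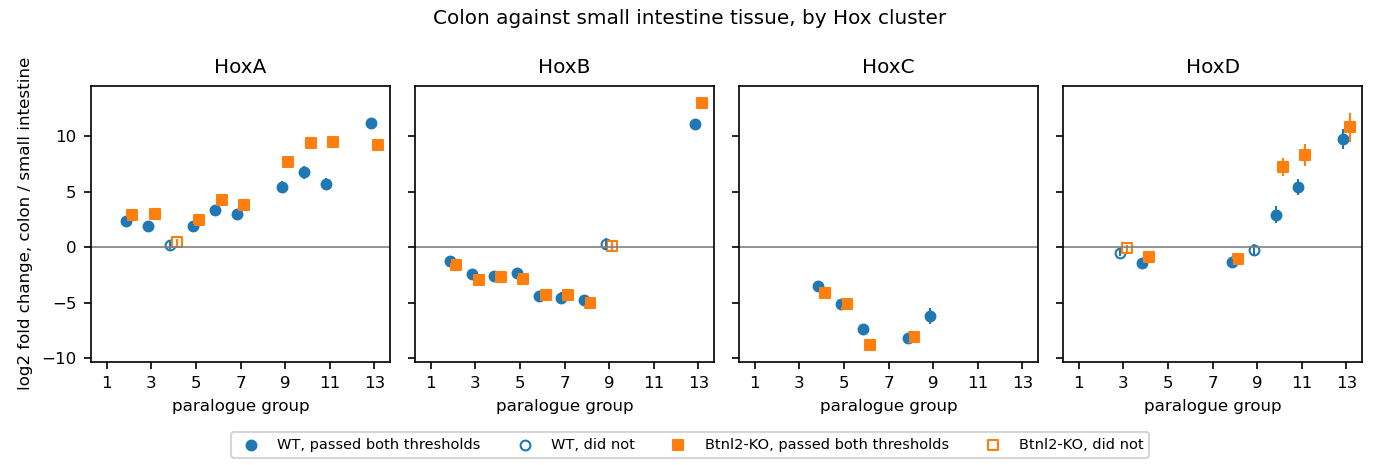
Log2 fold change of colon over small intestine with its SE (vertical axis) against the paralogue group (horizontal axis), for the members tested in each cluster, with 1 HoxA member not drawn. Circles are WT and squares Btnl2-KO mice, filled where both thresholds were passed. The values rise with the paralogue number in HoxA and HoxD and fall in HoxC. In HoxB they fall to group 8 and then reach 11.11 in WT mice at Hoxb13. Members whose direction was set by the count minimum are included.

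The levels also varied among libraries of 1 group. In the 3 small intestine libraries with high Gata4, Hoxb9 was at 2.13, 1.74 and 9.13 CPM, against 51.8 to 73.7 CPM in the other 11. Hoxb6 was at 3.50, 5.38 and 8.54 CPM there and at 24.8 to 45.0 CPM in the other 11. Hoxb3, Hoxb4, Hoxb5, Hoxb7 and Hoxb8 were likewise lowest in these 3 libraries. Hoxc6, by comparison, was at 9.82, 16.8 and 19.9 CPM in the 3 and at 9.74 to 15.5 CPM in the others. Fabp6 was at 431, 105 and 1174 CPM in the 3 libraries, against 1564 to 3985 CPM in the other 11.

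The 2 WT small intestine libraries with high Car1 had Hoxb9 at 70.8 and 67.7 CPM, within the range of the other libraries, and were the highest of the 14 in several posterior genes. Hoxa9 was at 2.92 and 2.51 CPM there and at most 0.479 CPM in the other 12 libraries. Hoxa10 was at 1.41 and 1.46 CPM, against at most 0.240 CPM, Hoxc10 at 2.06 and 2.74 CPM, against at most 0.474 CPM, and Hoxd9 at 2.61 and 2.98 CPM, against at most 0.543 CPM. Hoxa13, Hoxd12 and Hoxd13 had no count in either of the 2 libraries, and Hoxb13 was at 0.0503 and 0.0584 CPM.

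Some colon libraries were high in posterior HoxD genes. Hoxd13 was at 43.3, 79.1 and 70.4 CPM in Btnl2-KO libraries 964926, 964927 and 964929 and at 61.0 CPM in WT library 964936, and between 4.68 and 15.5 CPM in the other 9. The same 4 libraries had the 4 highest levels of Hoxd10 (5.88 to 7.66 CPM) and Hoxd11 (5.21 to 14.8 CPM), and also of Hoxb13, at 362 to 430 CPM against 111 to 283 CPM in the other 9. Hoxa13 did not set them apart, at 12.01, 20.9, 17.4 and 18.1 CPM in the 4 and 11.6 to 19.2 CPM in the others. Cdx2, a homeobox factor of intestinal epithelium, was at 69.3, 42.1, 46.4 and 39.4 CPM in the 4 libraries, against 69.5 to 176 CPM in the other 9, and its part in the spread was not tested.

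Genes that act with the Hox clusters mostly fell short of the thresholds. None of the 10 TALE cofactor genes passed in WT mice, and in Btnl2-KO mice Tgif1 was higher (log2 fold change 0.75) and Pbx4 lower (-0.97) in colon. Meis1, a Hox cofactor, fell short of the fold threshold in WT mice at 12.6 ± 1.35 CPM in colon (n = 6) and 17.6 ± 3.24 CPM in small intestine (n = 7). Of 22 Polycomb and Trithorax genes none passed in WT mice, while in Btnl2-KO mice Phc1 and Pcgf2 were higher and Bmi1 lower in colon (log2 fold changes 0.86, 0.78 and -0.71). Of the homeobox genes beside or upstream of the clusters, Evx1, next to Hoxa13, was at 1.17 to 4.21 CPM in WT colon and at most 0.0584 CPM in small intestine, Cdx1 was higher (log2 fold change 0.59) and Cdx2 lower (-1.08) in WT colon. Hottip, the non-coding RNA beyond Hoxa13, was at 31.6 to 52.0 CPM in colon and at most 0.0546 CPM in small intestine.

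The same WT comparison was read against cell type markers. The 10 T cell and IEL markers were all lower in colon, with a summed level of 7.55 to 13.3 CPM against 90.4 to 180 CPM in small intestine. None of 8 fibroblast and 5 endothelial markers passed. Fibroblast markers summed to 1760 to 3357 CPM in WT colon and 2017 to 3055 CPM in WT small intestine, and endothelial markers to 121 to 167 and 112 to 186 CPM. Of 8 smooth muscle markers 1 was lower, of 8 neuronal and glial markers 1 was lower, and of 12 epithelial markers 1 was higher and 3 were lower. The part of these cell types in the Hox differences was not tested.

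In isolated epithelium the middle HoxB genes were higher in ileum than in duodenum. Of 8 members tested in WT ileum against WT duodenum, 7 were higher in ileum (2.78% of all genes tested were), namely Hoxb3 to Hoxb9, and Hoxa3 did not pass (FDR = 0.498). None of these 7 reached 10 counts in a duodenal library, so they entered the test only through the ileum and their direction was set by the count minimum. Hoxb9 was at 13.6 and 18.5 CPM in the 2 ileal libraries and at 0, 0.191 and 0.0761 CPM in the 3 duodenal ones, a log2 fold change of 7.42 (SE 0.58, FDR = 0.00337). Hoxb8 was at 3.47 and 6.55 CPM in ileum, and at 0, 0.0477 and 0.0380 CPM in duodenum, a ratio of 176 on 2 duodenal counts (48.3 to 1460). Hoxb7 was at 2.33 and 4.26 CPM in ileum and 0.199, 0.0477 and 0.304 CPM in duodenum (log2 fold change 4.09, SE 0.58, FDR = 0.0141). Hoxb6 was at 2.33 and 2.44 CPM in ileum and 0.0993, 0.0954 and 0.0761 CPM in duodenum (4.67, SE 0.41, FDR = 0.00373). Both ileal libraries were above all 3 duodenal ones for the 7 genes, as they were for 17.7% of all genes tested. When either ileal library was left out, the lone ileal library had to be assumed to vary like the duodenal ones, and fewer members passed. Without WT duodenum library 1003465 4 passed. The shares of all genes in these fits are not given, so they show only that the count moved. When all 16 IEC libraries, including those that went against their labels, shared 1 edgeR fit, 0 passed (0% of all genes did), although 7 had an unadjusted p under 0.05 (17.9% of all genes).

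The anterior members of the run were lower in level. Hoxb4 was at 2.08 and 2.77 CPM in WT ileal IECs and 0.149, 0.238 and 0.114 CPM in duodenal ones (log2 fold change 3.85, SE 0.43, FDR = 0.00717). Hoxb3 was at 0.730 and 2.08 CPM in ileum and 0.0496, 0.143 and 0 CPM in duodenum (4.44, SE 0.87, FDR = 0.0392). Hoxb5 was at 0.511 and 1.13 CPM in ileum and 0.0993, 0.0477 and 0.0761 CPM in duodenum (3.39, SE 0.62, FDR = 0.0303). Both genes stood near the FDR threshold, with 2 ileal libraries.

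Every WT jejunal library lay below both ileal ones in Hoxb7, Hoxb8 and Hoxb9, as in 11.6% of all genes tested between these segments. Hoxb9 was at 0.191, 1.07 and 0.275 CPM in WT jejunal IECs, Hoxb8 at 0.0635, 0.126 and 0.495 CPM and Hoxb7 at 0.635, 0.695 and 1.26 CPM. Against duodenum, none of the 2 members tested passed (0.168% of all genes were higher). Hoxb7 was the 1 member with an unadjusted p under 0.05 in edgeR's test (log2 fold change 2.15, SE 0.57, FDR = 0.231), DESeq2 called none either, and its jejunal values were above the duodenal ones, as in 9.73% of all genes, and below the ileal ones. It entered this test only through the jejunum. Against jejunum, 4 of 8 members were higher in ileum (0.769% of all genes): Hoxb9 (4.88, SE 0.54, FDR = 0.00553), Hoxb8 (4.65, SE 0.62, FDR = 0.0127), Hoxb6 (3.05, SE 0.36, FDR = 0.00814) and Hoxb4 (2.26, SE 0.36, FDR = 0.0272). Of the 8, Hoxb3, Hoxb5 and Hoxb8 reached the count minimum only in ileum. Hoxb9 (6, 34 and 5 jejunal counts) and Hoxb6 (7, 10 and 6) reached it in too few jejunal libraries to be tested without the ileum. The direction of these genes was thus set at least in part by the count minimum, and Hoxb4 was the only called member free of this. Only 2 passed without WT jejunum library 1003477, where the share of all genes is not given, and 0 with all IEC libraries in 1 fit (0% of all genes). Fewer also passed without WT ileum library 1003488, which left a lone ileal library. Per kb, Hoxb9 led in WT ileum (6.22 CPM), followed by Hoxb7 (2.14), Hoxb8 (1.90), Hoxb6 (1.22) and Hoxb4 (0.944).

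**Figure D3:**
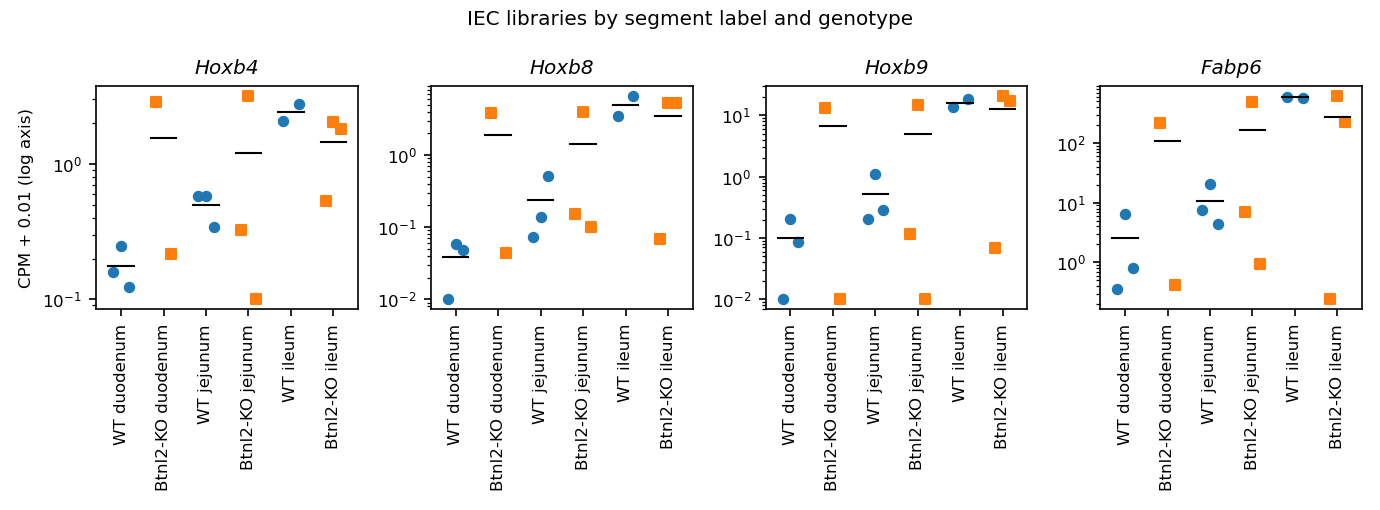
CPM + 0.01 on a log axis of Hoxb4, Hoxb8, Hoxb9 and the ileal marker Fabp6 in each IEC library, by segment label and genotype. Circles are WT, squares Btnl2-KO and bars group means, and in each gene 1 library labelled Btnl2-KO duodenum and 1 labelled Btnl2-KO jejunum lie near the ileal libraries. The library labelled Btnl2-KO ileum 1003481 lies near the duodenal ones in Hoxb8, Hoxb9 and Fabp6 and among the WT jejunal ones in Hoxb4, at 0.519 CPM.

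The group-13 genes that were higher in colon tissue, Hoxa13, Hoxb13 and Hoxd13, had no count in any of the 16 IEC libraries. No IEC library came from colon, so their level in colonic epithelium was not measured. Hoxa9 and Hoxa10 were low and confined among WT libraries to the duodenum, at 0.298, 0.0954 and 0.380 CPM and at 0.149, 0.143 and 0.190 CPM, with no count in WT jejunum or ileum. Hoxc6 and Hoxc8, which were lower in colon than in small intestine tissue, were at most 0.0948 and 0.146 CPM in WT IECs. Fibroblast markers summed to 2.29 to 8.57 CPM in WT ileal IECs and 0.199 to 0.477 CPM in duodenal ones, with 2 of 4 tested higher in ileum, and myeloid markers to 86.8 to 95.2 and 24.6 to 30.2 CPM. Their part in the HoxB difference was not tested.

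Among Btnl2-KO IEC libraries Hoxb9 was high where Fabp6 was high, whatever the segment label. Hoxb9 was at 20.6 and 17.1 CPM in the libraries labelled Btnl2-KO ileum 1003484 and 1003485, and at 0.0577 CPM in the library labelled Btnl2-KO ileum 1003481. The libraries labelled Btnl2-KO duodenum 1003459 and Btnl2-KO jejunum 1003474 had Hoxb9 at 13.4 and 14.9 CPM, and the other 3 Btnl2-KO libraries at 0 to 0.105 CPM. In the library labelled Btnl2-KO ileum 1003481, Hoxa9 and Hoxa10 were at 0.231 CPM each.

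γδ IELs held few Hox transcripts, 0.379 to 13.1 CPM over all 39 members, and Hoxb7 and Hoxb9 were higher in the ileum. In WT ileal IELs Hoxb7 was at 1.73, 2.79, 6.73 and 7.00 CPM, and in WT duodenal IELs at 0, 0, 0.0957 and 0.157 CPM, a log2 fold change of 6.09 (SE 0.79, FDR = 0.00167). Hoxb9 was at 0.715, 2.72, 4.87 and 5.82 CPM in WT ileum and had no count in WT duodenum, at least 77.8-fold lower there (edgeR FDR = 0.00683, and 0.0571 with all 22 IEL libraries in 1 fit). Both of the 2 members tested were higher (1.15% of all genes tested were). Neither reached 10 counts in a duodenal library, so both entered the test only through the ileum and the direction was set by the count minimum. The 4 ileal values of each lay above all 4 duodenal ones, as did those of 2.71% of all genes. Against WT jejunum, where Hoxb7 had 0.303 CPM in 1 library and no count in 3, both were again higher in ileum (10.8% of all genes), Hoxb7 by 5.53 on the log2 scale (SE 0.93, FDR = 0.00338) and Hoxb9 at least 101.5-fold (FDR = 0.00325). Neither could have entered this test without the ileum, so the direction was again set by the count minimum. No member was high enough to be tested between WT jejunum and duodenum.

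In Btnl2-KO ileal IELs Hoxb7 was at 1.48, 0.808 and 1.14 CPM and had no count in Btnl2-KO duodenum, at least 19.6-fold lower there. It was the 1 member tested, only through the ileum, and did not pass in edgeR's test (FDR = 0.0776, 0.128% of all genes higher), and passed in DESeq2 (FDR = 0.00122), with the epithelial markers as a covariate, and without Btnl2-KO ileum library 1105585. Hoxb9 was at 0, 0.955 and 1.35 CPM in Btnl2-KO ileum and without a count in Btnl2-KO duodenum. Btnl2-KO and WT ileum are set side by side with the genotype comparisons.

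Hoxb4, known from blood stem and progenitor cells, was the only member with a count in every one of the 22 IEL libraries, at 0.131 to 1.91 CPM in all segments. Hoxa9 and Hoxa10 were found in 2 of 4 WT duodenal libraries, at 0.425 and 0.430 CPM and at 0.690 and 0.287 CPM, and not in ileum. Hoxb8, the neighbour of Hoxb7 and Hoxb9, had no count in any IEL library. Epithelial markers were present in these sorted cells, at a summed 3498 to 9239 CPM in WT ileum, 3296 to 5380 CPM in WT duodenum and 1033 to 3646 CPM in Btnl2-KO ileum, and Fabp6 was at 322 to 610 CPM in WT ileum, 94.4 to 134 CPM in Btnl2-KO ileum and at most 0.106 CPM in WT duodenum.

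**Figure D4:**
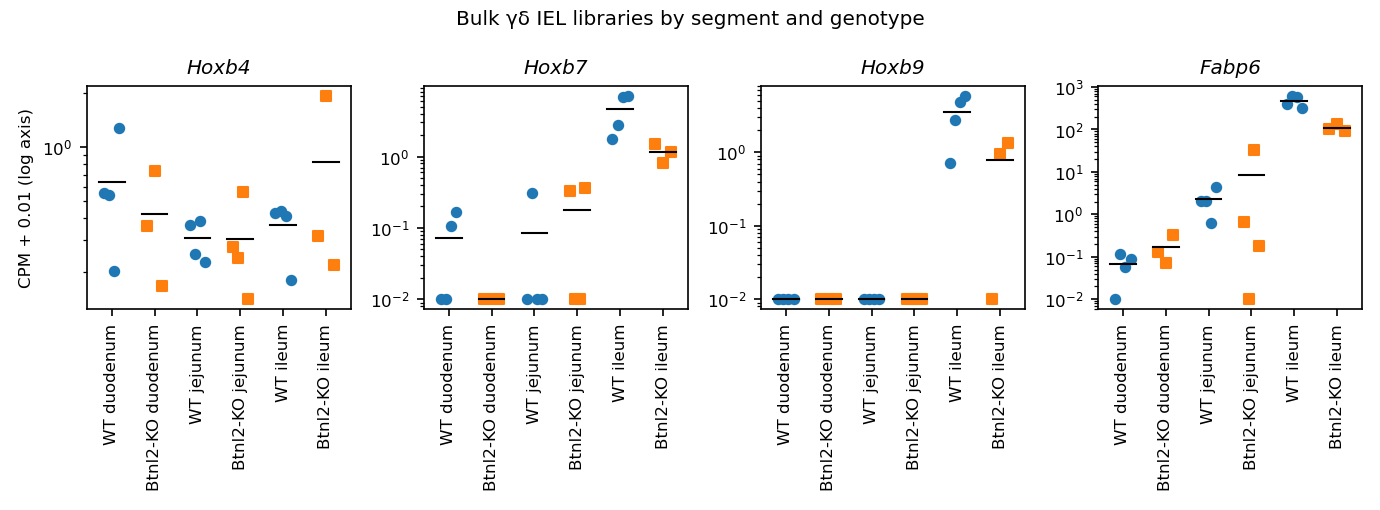
CPM + 0.01 on a log axis of Hoxb4, Hoxb7, Hoxb9 and Fabp6 in each bulk γδ IEL library, by segment and genotype, with circles for WT, squares for Btnl2-KO and bars for group means. Hoxb7, Hoxb9 and Fabp6 are highest in the ileum, and Hoxb4 is spread over all segments.

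The same genes were looked up in single γδ IELs. Cells were kept from 500 detected genes upward and up to 10% of mitochondrial UMIs (unique molecular identifiers, 1 per captured molecule), so that 3617 to 4678 cells per library remained, 23824 in all, with a median of 4869 to 5463 UMIs. Pairs of libraries shared 19 to 31 cell barcodes. Doublets were not removed. Of the 39 members 19 had a UMI, and 938 of the 1063 Hox UMIs were Hoxb4. Hoxb4 was found in 888 cells, 3.08% to 4.25% of the cells of each library, and 887 of these cells also had a UMI of Cd3e, a chain of the T cell receptor complex, as did 23672 of all 23824 cells.

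UMIs of Hoxb4 and of Hoxb7, Hoxb8 or Hoxb9 were found in cells with different numbers of epithelial UMIs. Epithelial UMIs here are those of 11 epithelial markers, with Epcam left out. Epcam had a UMI in 33.3% to 41.0% of the cells of each library. The epithelial sums given for bulk IELs include it. None of the 888 Hoxb4 cells had 10 or more UMIs of the 11 epithelial genes (the highest had 6), and among the 130 cells that did, at a median of 11646 UMIs, 0 had a Hoxb4 UMI (exact 95% interval up to 2.80%), which limits cells with a UMI and not cells that express the gene. In the other 23694 cells, at a median of 5086 UMIs, the share was 3.75% (3.51% to 3.997%). Hoxb7, Hoxb8 or Hoxb9 was found in 12 cells, of which 8 were in the WT ileum library. Of the 12, 10 had at least 10 epithelial UMIs and 3 had a Cd3e UMI, and their median was 20510 UMIs. Hoxb9 had 22 UMIs in 9 cells. Fabp6, an epithelial gene, had a UMI in 3.48% of the cells of the WT ileum library and 3.44% of the Btnl2-KO one, 130 and 161 cells, more than the 28 and 12 cells there with 10 or more epithelial UMIs. Neither free RNA nor doublets were estimated. Intervals cover counting error only, and with 1 library per group no test between groups was made. Hoxc9 was found in 27 cells over all 6 libraries and Hoxa7 in 16 cells of 5 libraries, with none in WT jejunum, and 39 of the 43 cells with either had Cd3e.

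**Figure D5:**
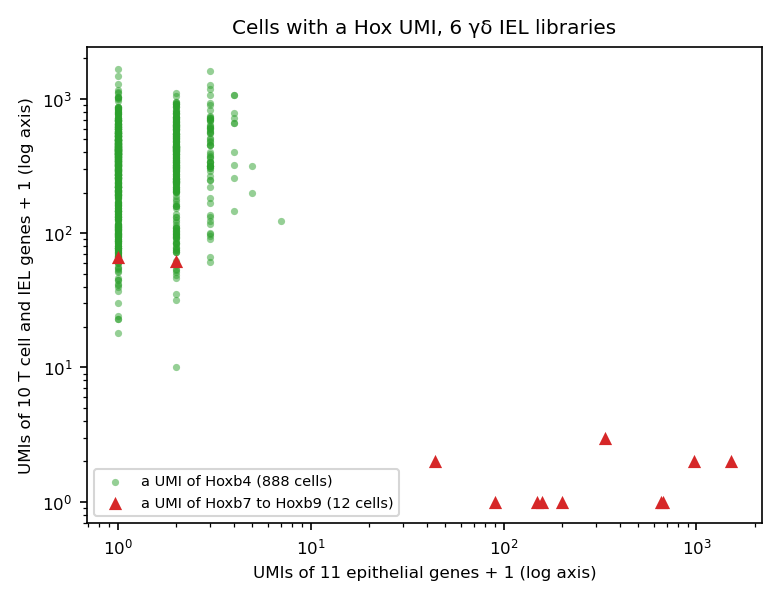
UMIs of 11 epithelial genes + 1 (horizontal log axis) and of 10 T cell and IEL genes + 1 (vertical log axis) in each single cell with a UMI of Hoxb4 (circles, 888 cells) or of Hoxb7, Hoxb8 or Hoxb9 (triangles, 12 cells). The Hoxb4 cells lie at the left with at most 6 epithelial UMIs, and 10 of the 12 triangles lie at 10 or more.

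Between Btnl2-KO and WT mice no member passed edgeR's test fitted on the 2 groups compared. In small intestine tissue 0 of 21 members passed in edgeR and in DESeq2 (0.0202% of all genes did in edgeR), with 5 at an unadjusted p under 0.05 (23% of all genes), and in colon 0 of 28 (0.0269%), with 2 (4.14% of all genes). With all 27 tissue libraries in 1 edgeR fit, 2 members were lower in Btnl2-KO small intestine (1.45% of all genes passed in either direction), Hoxa3 (log2 fold change -0.83, FDR = 0.0337) and Hoxa7 (-0.71, FDR = 0.0381). Without the small intestine libraries that stood apart, 0 members had an unadjusted p under 0.05 there (14.1% of all genes did). The 2 in colon were Hoxb2 (1.14 ± 0.365 CPM in Btnl2-KO, n = 7, and 1.88 ± 0.397 CPM in WT, n = 6) and Hoxb5 (2.55 ± 0.795 and 3.81 ± 0.481 CPM). In duodenal IELs the 1 member tested, Hoxb4, did not pass (FDR = 0.997, 0.00789% of all genes), and none had an unadjusted p under 0.05.

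In ileal IELs Hoxb7 was at 0.808 to 1.48 CPM in Btnl2-KO (n = 3) and 1.73 to 7.00 CPM in WT (n = 4), a log2 fold change of -1.96 (SE 0.59, edgeR FDR = 0.440), and every Btnl2-KO library was below every WT one, as in 4.1% of all genes tested. DESeq2 put its FDR at 0.0472. Hoxb9 gave -2.15 (SE 0.99, edgeR FDR = 0.569). Of these 2 members and of all genes, 0 passed in edgeR (0%), where 1108 genes had an unadjusted p under 0.05, and 221 genes passed in DESeq2. The summed epithelial markers were also lower in Btnl2-KO ileum, at the values given above, and their part in the Hoxb7 difference was not tested. In IECs, with the libraries that went against their labels included, 0 of 2 members passed in duodenum (0% of all genes), 0 of 3 in jejunum (0%) and 0 of 8 in ileum (0.00774%) in edgeR and DESeq2. In edgeR, 1, 0 and 0 members had an unadjusted p under 0.05 (1.22%, 8.4% and 2.07% of all genes). Leaving out library 1003464 makes library 1003459 the lone Btnl2-KO duodenal sample, so calls from that fit are not read as a result about the members.

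The colon against small intestine difference itself was compared between genotypes. None of 33 members passed the interaction test (0.0193% of all genes did), with 8 at an unadjusted p under 0.05 (12.9% of all genes), all toward a larger difference in Btnl2-KO mice, among them Hoxa9 (log2 difference 2.24, SE 0.74, FDR = 0.307). Without the 5 small intestine libraries that stood apart, 1 member had an unadjusted p under 0.05 (10.1% of all genes). In IELs, 0 of 3 members passed the interaction of genotype with ileum against duodenum (0% of all genes).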

How the data were processed

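Bulk RNA-seq of intestinal tissue, IECs and sorted γδ IELs was analysed with 6 single-cell γδ IEL libraries. The authors aligned reads to a customized mouse genome (GRCm38 per the labels) and quantified sense-strand exon reads as RSEM expected counts. The library kits named in the study's methods and in the labels differ. The deposited expected counts were rounded to whole numbers. Rows without a gene name (0.254% to 9.24% of a library) were kept among all genes, and 1 column of no sample was left out. The authors' single-cell values are deposited UMI counts. Cells under 500 detected genes or above 10% mitochondrial UMIs were dropped.

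Genes reaching 10 counts in a number of libraries equal to the size of the smaller group entered edgeR 4.0.16 (R 4.3.3; TMM normalization, quasi-likelihood F-test, Benjamini-Hochberg adjustment) on the 2 groups compared, and called at FDR below 0.05 and fold change above 1.5. The SE is the log2 fold change divided by the square root of F. CPM used TMM library sizes over each table, so levels were not compared between tables. Exon lengths came from GENCODE M21. A group without counts was set at a floor of 3 counts over the group, and ratios on 1 to 3 counts carry exact 95% intervals, which cover counting error only. Alternatives were DESeq2 1.42.0, size factors by relative log expression, no count filter, 1 fit over all libraries of a table, leaving out each library, the epithelial markers as a covariate for IELs, and, added after seeing the data, leaving out 5 small intestine libraries. The scripts were tested on simulated data. Values by library are given for up to 8 members per direction with the largest called change in each segment or tissue comparison, the 4 group-13 genes, Hoxb7, and the 3 members with the highest mean CPM in each table. The members and lists were chosen with earlier results of these data known. The study's methods describe its samples as biological replicates. Apart from the pools of 2 mice in bulk IELs, the labels do not tie libraries to animals. No pair of libraries agreed within sampling noise (lowest chi-square per degree of freedom 5.08). The values of 1 HoxA member are not reported here.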

Additional observations from a re-analysis of the deposited data

Results flagged for a closer look

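Of 67 groups of 4 to 10 libraries, 13 had 1 library that lay apart from the rest by Dixon's test at its 5% level, which chance alone gives in about 1 in 20 groups. In Btnl2-KO small intestine, library 964939, with Gata4 at 95.6 CPM, was low in 7 of these: Hoxb3 at 5.63 CPM, Hoxb5 at 5.18 CPM, Hoxb6 at 3.50 CPM, Hoxb7 at 2.89 CPM, Hoxb9 at 2.13 CPM, Hoxc8 at 13.86 CPM and Hoxc9 at 0.3045 CPM. In WT colon, library 964936 was high in Hoxd10 at 6.73 CPM and in Hoxd13 at 61.0 CPM, and library 964934 was high in Hoxa9 at 50.4 CPM and in Hoxa10 at 55.7 CPM. In Btnl2-KO colon, library 964929 was high in Hoxc4 at 0.746 CPM. Among WT jejunal IELs, library 1105596 was the 1 library of 4 with a Hoxb7 count, at 0.3025 CPM.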

How the results depend on the processing

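Each count of called Hox genes was recomputed under 264 alternatives over 19 comparisons, of which 250 stayed within 1.5 times. A count of 0 that stayed 0 was included in the 250. This holds also for WT jejunum against duodenum IELs and Btnl2-KO against WT jejunal IELs, where no member reached the count minimum. The 250 therefore says little about comparisons with few members tested. With all libraries of a table in 1 fit, the calls were 1 in place of 2 for WT ileum against duodenum IELs, 0 in place of 7 for WT ileum against duodenum IECs, 0 in place of 4 for WT ileum against jejunum IECs, and 2 in place of 0 for Btnl2-KO against WT small intestine. DESeq2 called 1 in place of 0 for Btnl2-KO ileum against duodenum IELs and for Btnl2-KO against WT ileal IELs, and the epithelial covariate 1 in place of 0 for the former. Leaving out 1 library gave 3 to 7 calls for WT ileum against duodenum IECs, 2 to 4 for WT ileum against jejunum IECs, 0 to 1 for Btnl2-KO ileum against duodenum IELs, and 0 to 2 for Btnl2-KO against WT duodenal IECs. In the last, the 2 calls came without library 1003464, which leaves library 1003459, labelled duodenum with Fabp6 at 220 CPM, as a lone sample assumed to vary like the other group. Colon against small intestine gave 26 to 28 calls in WT and 28 to 29 in Btnl2-KO mice. The shares of all genes in the fits with 1 library left out are not given, so these ranges show only how far the counts moved. Of 749 alternative values of 48 named log2 fold changes, 33 fell short of the threshold, 1 passed it (Hoxb7 in Btnl2-KO against WT ileal IELs by DESeq2, -1.99) and 0 changed sign. The cause of these changes was not tested. Many of the 48 belonged to members that entered a test only through the group where they were high. Their sign could hardly change, so its constancy says little. No paired analysis was possible because the groups share no replicate numbers. Between 2 groups at most 8 of the 39 members reached the count minimum in IECs and at most 2 in IELs, although median library totals (24702008 and 18277158 counts) were above that of tissue (16890363).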

Other observations

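Some members were too low to be tested. In WT ileal IELs Hoxb6 was at 0.238, 0.287, 0.467 and 0.226 CPM, and had no count in WT duodenal or WT jejunal IELs, at least 6.54-fold and 8.53-fold lower there. In Btnl2-KO ileal IELs it was found in 1 of 3 libraries, at 0.104 CPM, and also in 1 Btnl2-KO duodenal library at 0.0585 CPM and 1 Btnl2-KO jejunal library at 0.0383 CPM. In IECs, Hoxa3 was the 1 HoxA gene with enough counts to be tested in all segments, at 0.568 ± 0.244 CPM in WT duodenum (n = 3), 1.02 ± 0.340 CPM in WT jejunum (n = 3) and 0.966 ± 0.182 CPM in WT ileum (n = 2), and did not pass between any of them. Among single cells, Hoxb3 had 15 UMIs in 15 cells, and 20 of the 39 members had none.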
